A study of Mus musculus with 12 samples.

Results

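The Id genes and the bone morphogenetic protein (BMP) pathway around them were followed in immortalized tumor-initiating cells (iTICs) of the mouse, a breast cancer model, after transfer out of hypoxic stem cell culture. The genes described are the 4 Id genes (Id1, Id2, Id3, Id4), the ligands Bmp4 and Bmp7, the receptor Bmpr1a and the feedback inhibitors Smad6, Smad7 and Bambi. They were taken by name, with every probe that the platform annotation assigns to them. This gave 10 genes of the 19057 named on the array, with 16 probes, of which 12 probes of 8 genes were bright enough to test among 10365 tested genes.

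Normoxic cells stood at 21% O2 and 5% CO2 in standard DMEM-based medium for 1 to 7 days. There were 3 day 7 arrays and 1 array for each of days 1 to 6. Hypoxic cells, the starting culture with 3 arrays, were kept at 3% O2 and 5% CO2 in a serum-free, MEBM-based stem cell medium supplemented with 2% Cultrex (basement membrane extract). Oxygen and medium changed together and cannot be told apart. No label states that replicates come from separate cultures. The p-values therefore reflect only how far these arrays lie apart, which may be technical. All groups are the same immortalized cells, and the labels do not say whether they are 1 clone.

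BMPs are secreted ligands that bring together type I and type II serine-threonine kinase receptors at the cell surface. The type I receptors phosphorylate Smad1, Smad5 and Smad9, which enter the nucleus with Smad4 and activate target genes. Id1, Id2 and Id3 are classical targets. Id proteins have a helix-loop-helix but no DNA-binding region, and they hold E proteins such as those of Tcf3, Tcf4 and Tcf12 away from DNA. In mammary epithelium Id proteins are known for their part in growth, differentiation and stem cell states. The pathway also induces its own inhibitors, among them Smad6, Smad7 and the pseudoreceptor Bambi.

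Each array is 1 Mouse WG-6 v2.0 BeadChip section, read in 1 colour. Values are log2 signals after background correction and quantile normalization (neqc of limma), and a difference of 1 is a 2-fold change. Levels of different probes are not comparable. Between 34.3% and 37.7% of all probes were detected per array, where detected means a detection p-value below 0.05, and a probe was tested if it was detected on at least 3 of the 12 arrays. A gene is represented by its brightest tested probe. Adjusted p-values come from a limma model of all 12 arrays with Benjamini-Hochberg adjustment over all genes tested, 2-sided, and rose and fell mark an adjusted p below 0.05. For further probes of a gene the adjustment ran over all 18561 probes tested. The deposited tables point to 2 groups of 6 arrays handled together, which no label states: set a holds day 7 replicates 2 and 3, days 4 to 6 and hypoxic replicate 3, and set b the other arrays. The sample names of these tables conflict in part, and the names of the table holding all 12 arrays were used. Days 1 to 3 all lie in set b and days 4 to 6 all in set a. A change between these periods therefore cannot be told apart from the set. Set a has 1 hypoxic array and set b 1 day 7 array, so a call can be lost within a set through fewer arrays alone.

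Promoter sequences were available for 6 of the 10 genes (Id2, Id3, Id4, Smad6, Bmp4 and Bmpr1a), from RefSeq on build GRCm38.p6, covering 250 bases before to 50 bases after the start that the RefSeq table takes for each gene. For Id2, Id3, Id4 and Bmp4 this is the outer end of the gene coordinates given below. For Bmpr1a and Smad6 it lies inside those coordinates, and the Bmpr1a window falls wholly within the gene. Those of the Id genes are shown because Id3 and Id4 were the genes of this family that moved farthest, in opposite directions, with Id2 between them. Capitals mark GGCGCC, the core of a GC-rich element known to bind BMP-activated Smads, and CAGAC, the Smad box, on either strand. The Id2 sequence lies at chr12:25096043-25096342 (minus strand), the Id3 sequence at chr4:136143572-136143871 (plus strand) and the Id4 sequence at chr13:48260866-48261165 (plus strand).
Id2: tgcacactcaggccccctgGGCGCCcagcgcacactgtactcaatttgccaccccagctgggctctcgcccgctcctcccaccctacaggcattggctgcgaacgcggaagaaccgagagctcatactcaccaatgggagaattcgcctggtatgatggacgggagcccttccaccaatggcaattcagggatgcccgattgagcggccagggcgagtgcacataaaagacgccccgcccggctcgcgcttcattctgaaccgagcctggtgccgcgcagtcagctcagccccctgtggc
Id3: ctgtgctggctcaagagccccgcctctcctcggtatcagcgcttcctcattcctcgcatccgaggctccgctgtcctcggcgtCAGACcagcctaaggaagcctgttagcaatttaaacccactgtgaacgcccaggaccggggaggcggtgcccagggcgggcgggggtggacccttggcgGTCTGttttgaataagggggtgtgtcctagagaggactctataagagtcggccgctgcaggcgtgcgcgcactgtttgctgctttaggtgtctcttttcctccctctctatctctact
Id4: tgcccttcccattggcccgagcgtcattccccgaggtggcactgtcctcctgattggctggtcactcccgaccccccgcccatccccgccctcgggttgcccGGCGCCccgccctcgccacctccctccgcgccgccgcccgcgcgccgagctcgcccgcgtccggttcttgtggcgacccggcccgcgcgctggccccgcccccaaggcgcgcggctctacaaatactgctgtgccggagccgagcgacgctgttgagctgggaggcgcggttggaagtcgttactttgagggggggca

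The window of Id3 held 2 CAGAC matches and no GGCGCC, whereas those of Id2 and Id4 each held 1 GGCGCC and no CAGAC. Of the other genes, Bmpr1a held 1 GGCGCC, and the windows of Smad6 and Bmp4 held neither of these motifs. GGCGCC occurs in 11.9% and CAGAC in 49.6% of the 32851 promoter windows, so these matches are common. ACGTG, the core of the hypoxia response element, was also searched on both strands and occurs in 19.6% of windows. It was found in the windows of Smad6 and Bmp4, with 2 matches in each, those of Bmp4 overlapping as the forward and reverse reading of a palindrome, and in none of the Id windows. None of these windows held both GGCGCC and CAGAC. The GC content of the 6 windows ran from 60.0% for Id3 to 79.3% for Bmpr1a.

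On day 7, 3 of the 4 Id genes rose against hypoxic cells and the remaining gene, Id4, fell, where 25.9% of all tested genes rose and 33.7% fell. The rise of Id2 (0.89, adjusted p = 0.0256) did not pass in 9 of 19 alternative analyses. Id1 was 7.07-fold higher and Id4 7.87-fold lower in day 7 cells. Id3 was higher by 5.05 on the log2 scale, or by 3.47 without background correction, since its hypoxic signals were at background. Of the ligands Bmp4 rose and Bmp7 fell, the type I receptor Bmpr1a fell on the probe used for it, and Smad6 did not pass the test. Smad7 and Bambi, with 1 probe each, were detected on 0 of 12 arrays.

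Of the 8 members tested on day 7, 4 rose and 3 fell (Bmpr1a by its brighter probe), where 25.9% of all tested genes rose and 33.7% fell. The median difference was 0.18 over these members and -0.11 over all genes. With arrays shifted to a common median instead of quantile-normalized, 31.8% of all calls were rises in place of 43.5%, and the median of all genes was -0.31 in place of -0.11. With the shift set by probes above background on every array, rises made up 52.4% and the median was 0.09. In 7 of the 8 members the day 7 and hypoxic arrays did not overlap, as in 66% of all genes. In 5 members (Id1, Id2, Id3, Id4 and Bmpr1a) every normoxic array lay beyond every hypoxic array, as in 39.9% of all genes.

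Id3 (chr4:136143822-136145392, GRCm38.p6) read 5.15, 5.54 and 5.31 on the 3 hypoxic arrays, 9.93, 10.22, 9.78, 9.91, 9.33 and 10.47 on days 1 to 6, and 10.16, 9.99 and 11.003 on day 7. It was detected on 1 of 3 hypoxic arrays and on all 9 normoxic arrays, and no normoxic array came near the hypoxic ones. The day 7 mean was 10.38 ± 0.54 against 5.33 ± 0.20 in hypoxic cells (SD, n = 3 each), a difference of 5.05 (SE 0.27, adjusted p = 1.76e-05). Because hypoxic signals lay at the edge of detection, the size depends on the background model. Without background correction the differences were 3.47 on day 7, 3.09 over days 1 to 3 and 3.03 over days 4 to 6. With it they were 4.65 for the mean of days 1 to 3 (adjusted p = 1.97e-05) and 4.57 for days 4 to 6 (adjusted p = 2.59e-05). Day 7 did not differ from days 1 to 3 past the threshold (0.40, adjusted p = 0.263), and the day 1 signal lay within the range of the later days.

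Id1 (chr2:152736251-152737410) read 7.65, 8.36 and 7.57 on the hypoxic arrays, 11.36, 11.57, 10.84, 10.50, 10.21 and 11.0002 on days 1 to 6, and 10.62, 10.40 and 11.03 on day 7. It was detected on all 12 arrays, and its highest levels were on days 2 and 1. Day 7 cells averaged 10.68 ± 0.32 against 7.86 ± 0.44 in hypoxic cells (SD, n = 3 each), a difference of 2.82 (SE 0.26, adjusted p = 0.000108). Days 1 to 3 lay 3.39 above hypoxic cells (10.5-fold, adjusted p = 5.32e-05) and days 4 to 6 lay 2.71 above (adjusted p = 0.000162). The difference of day 7 from days 1 to 3 was -0.57 and did not pass (adjusted p = 0.111), but it passed in 3 of 16 alternatives. These were the common-median scaling (-0.85, adjusted p = 0.0108), no background correction (-0.55, adjusted p = 0.0173) and a variance trend over intensity (adjusted p = 0.0181).

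Id2 (chr12:25093799-25096092) was highest on days 1 and 2. Its brightest probe read 7.51, 7.49 and 7.42 on the hypoxic arrays, 9.40, 9.36, 8.16, 7.92, 7.60 and 8.39 on days 1 to 6, and 7.83, 8.29 and 8.99 on day 7. These 2 arrays stand above all others, and day 5 lies only just above the hypoxic arrays. The rise over days 1 to 3 was 1.497 (2.82-fold, SE 0.28, adjusted p = 0.00293). Days 4 to 6 did not pass (0.49, adjusted p = 0.171), except without day 7 replicate 3, which enters the estimate of spread (adjusted p = 0.0328). The day 7 mean was 8.37 ± 0.59 against 7.48 ± 0.05 in hypoxic cells (SD, n = 3 each), a difference of 0.89 (adjusted p = 0.0256). This day 7 call ended in 9 of 19 alternatives, among them the inferred set as a block (0.77, adjusted p = 0.0547), set a alone (1.22, adjusted p = 0.0877) and set b alone (0.32, adjusted p = 0.317). Without hypoxic replicate 1, 2 or 3 or day 7 replicate 2 the adjusted p was 0.0683, 0.063, 0.0686 and 0.0507. The call also ended with the common-median scaling (0.51, adjusted p = 0.115) and with the mean of the tested probes (0.45, adjusted p = 0.191).

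Further Id2 probes were dim. A second probe for the same reference transcript was detected on 0 of 3 hypoxic arrays and on 2 of 3 day 7 arrays. It was at least 1.45-fold higher on day 7 (adjusted p = 0.0137) and at least 1.72-fold higher over days 1 to 3 (adjusted p = 0.00529), both computed against the lowest detected signal of each hypoxic array. The third, designed on a cDNA clone, ranged from 4.80 to 6.80 and differed by -0.47 on day 7 (adjusted p = 0.303). It was detected on all 3 hypoxic arrays and on no array of days 4 to 6. Over days 4 to 6 it was at least 1.49-fold lower, which did not pass (adjusted p = 0.0698). The mean of the 3 probes differed by 0.96 over days 1 to 3 (adjusted p = 0.0199) and by 0.02 over days 4 to 6 (adjusted p = 0.956).

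Id4 (chr13:48261116-48266028), known for its expression in basal mammary cells, ran the other way. It read 10.96, 10.86 and 11.10 on the hypoxic arrays, 7.69, 8.13, 6.86, 7.83, 7.17 and 8.52 on days 1 to 6, and 7.69, 8.03 and 8.27 on day 7. The 3 hypoxic arrays stand far above all normoxic arrays, and day 3 is the lowest. The day 7 mean was 7.999 ± 0.29 against 10.98 ± 0.12 in hypoxic cells (SD, n = 3 each), a difference of -2.98 (SE 0.17, adjusted p = 2.16e-05) and rank 58 of 10365 among falls. The differences were -3.42 over days 1 to 3 (adjusted p = 1.11e-05) and -3.13 over days 4 to 6 (adjusted p = 2.06e-05). A second Id4 probe, designed on a cDNA clone, gave a day 7 mean of 6.20 ± 0.11 against 9.15 ± 0.23 in hypoxic cells (SD, n = 3 each), a difference of -2.96 (adjusted p = 2.14e-05).

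Within set a alone the day 7 differences were 3.15 for Id1, 5.18 for Id3 and -2.95 for Id4, and within set b alone they were 2.61, 4.82 and -3.22 in that order of genes. All 6 values passed the threshold. In the order of group means, days 1 and 2 of Id1 were 0.21 apart, less than its pooled replicate SD of 0.38, whereas the lowest normoxic day lay 2.35 above hypoxic cells. For Id3 the corresponding gap was 4.00 with a pooled SD of 0.41, and for Id4 the gap between hypoxic cells and the next group, day 6, was 2.45 with a pooled SD of 0.22. For Id2 the gap between hypoxic cells and day 5 was 0.12, below its pooled SD of 0.42.

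**Figure D1:**
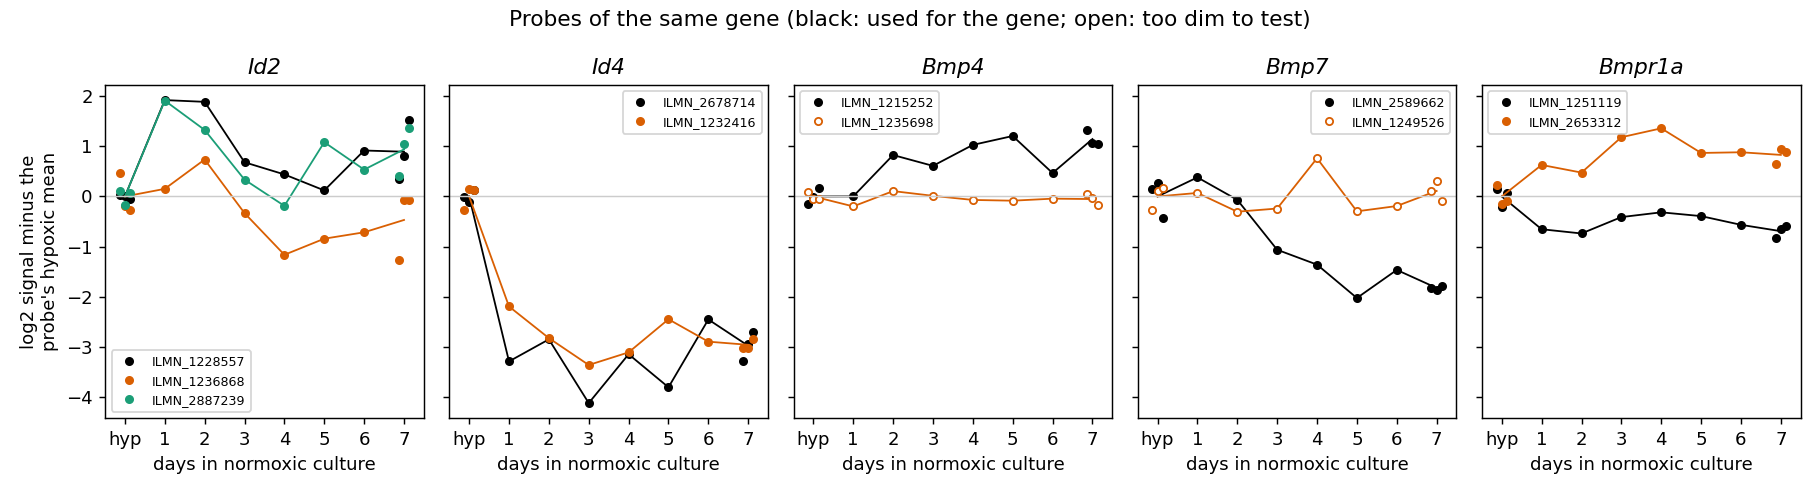
Log2 signal minus the probe's own hypoxic mean (vertical axis) for every probe of the 5 genes with several probes, by culture (hyp, hypoxic; 1 to 7, days in normoxic culture). Black marks the probe used for the gene, open symbols a probe too dim to test; points are arrays and lines join group means. The 2 Id4 probes fall together, whereas the 2 Bmpr1a probes run in opposite directions.

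The ligands moved in opposite directions. Bmp4 (chr14:46383525-46390669), a ligand of mammary stroma and epithelium, read 7.17, 7.30 and 7.48 on the hypoxic arrays, 7.32, 8.14, 7.92, 8.34, 8.52 and 7.78 on days 1 to 6, and 8.65, 8.38 and 8.35 on day 7. Day 1 still lay among the hypoxic arrays and all later days lay above them. Day 7 cells averaged 8.46 ± 0.16 against 7.31 ± 0.15 in hypoxic cells (SD, n = 3 each), a difference of 1.14 (2.21-fold, SE 0.14, adjusted p = 0.000418). Within set a alone it was 0.89 and no longer passed (adjusted p = 0.0598). Days 4 to 6 were 0.90 higher (adjusted p = 0.00158), and this too ended within set a alone (0.74, adjusted p = 0.0862). Over days 1 to 3 the difference was 0.48 (adjusted p = 0.0246), which did not pass without hypoxic replicate 1 (adjusted p = 0.0763), without hypoxic replicate 2 (adjusted p = 0.0651) or with the set as a block (adjusted p = 0.0509). A second Bmp4 probe was detected on 0 of 12 arrays.

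Bmp7 (chr2:172868012-172940321), an epithelial ligand of the same pathway, read 7.86, 7.98 and 7.28 on the hypoxic arrays, 8.09, 7.64, 6.64, 6.35, 5.68 and 6.24 on days 1 to 6, and 5.88, 5.84 and 5.92 on day 7. Day 2 lay among the hypoxic arrays, day 1 just above them, and every array from day 3 on below them. On day 7 the mean was 5.88 ± 0.04 against 7.71 ± 0.37 in hypoxic cells (SD, n = 3 each), a difference of -1.82 (3.54-fold lower, SE 0.19, adjusted p = 0.000203). Days 4 to 6 differed by -1.62 (adjusted p = 0.000432). Without background correction these differences were -1.01 and -0.91, and both passed. Days 1 to 3 differed by -0.25 and did not pass (adjusted p = 0.316), except without hypoxic replicate 3, where -0.46 passed (adjusted p = 0.0342). A second Bmp7 probe, designed on a cDNA clone, was detected on day 4 only.

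Set against days 1 to 3, day 7 cells had 1 member higher and 1 lower of 8, where 20.1% of all genes rose and 24.6% fell in this comparison. These were Bmp4 (0.67, adjusted p = 0.00858) and Bmp7 (-1.57, adjusted p = 0.001, or -0.86 without background correction). Id2 lay -0.60 from days 1 to 3 (adjusted p = 0.115), which passed without day 7 replicate 3 (-0.92, adjusted p = 0.00701), within set b alone (-1.15, adjusted p = 0.0108) and in 3 other alternatives. Id4 lay 0.44 higher (adjusted p = 0.0748) and passed in 2 of 16 alternatives. These were leaving out day 7 replicate 1 (0.60, adjusted p = 0.026) and a variance trend over intensity (adjusted p = 0.0414). Smad6 lay -0.62 from days 1 to 3 (adjusted p = 0.0552) and passed in 3 of 15 alternatives. Among them were leaving out hypoxic replicate 3 (adjusted p = 0.0195) and the common-median scaling (-0.69, adjusted p = 0.023). The rise of Bmp4 after days 1 to 3 was lost with the common-median scaling (0.28, adjusted p = 0.226), under which 26.2% of all calls in this comparison were rises in place of 44.9%. It was 55.4% when only probes above background on every array set the shift.

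Bmpr1a (chr14:34411061-34503336), the type I receptor for Bmp4, could not be given a direction. Its brighter probe read 10.26, 9.89 and 10.17 on the hypoxic arrays, 9.45 to 9.79 on days 1 to 6, and 9.28, 9.45 and 9.51 on day 7. Its dimmer probe read 7.28, 6.90 and 6.97 on the hypoxic arrays, 7.53 to 8.41 on days 1 to 6, and 7.71, 7.997 and 7.93 on day 7. On both probes the hypoxic arrays stood apart from all normoxic arrays, above them on the first and below them on the second. The day 7 difference was -0.69 (SE 0.14, adjusted p = 0.00465) on the brighter probe and 0.83 (SE 0.16, adjusted p = 0.00332) on the dimmer one. The mean of both probes differed by 0.07 (adjusted p = 0.707), and the brighter probe did not pass within set a alone (-0.69, adjusted p = 0.0965). Both probes are annotated to 1 reference transcript.

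Smad6 (chr9:63953076-64022085), which blocks BMP receptors and Smad1 from the inside, stood at the edge of detection. It read 5.88, 5.84 and 5.17 on the hypoxic arrays, 6.37, 5.32, 5.43, 4.88, 5.39 and 5.23 on days 1 to 6, and 4.92, 5.29 and 5.07 on day 7. It was detected on hypoxic replicates 1 and 2 and on day 1, and on none of the later arrays. Day 1 was the highest array. On day 7 the mean was 5.09 ± 0.19 against 5.63 ± 0.40 in hypoxic cells (SD, n = 3 each), at least 1.07-fold lower by the detection floor, and did not pass (-0.54, adjusted p = 0.0678). This passed without hypoxic replicate 3 (-0.77, adjusted p = 0.00918) and with the common-median scaling (-0.58, adjusted p = 0.0388). The difference was 0.01 within set a alone and -0.95 within set b alone. Smad7, a second inhibitory Smad, ranged from 4.54 to 4.85 over all arrays, and Bambi from 4.61 to 5.10, neither well above background. No direction can be read for either.

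Over days 1 to 3, 4 of the 8 members rose (Id1, Id2, Id3 and Bmp4) and 2 fell (Id4 and, by its brighter probe only, Bmpr1a), where 25.6% of all genes rose and 29.2% fell. Over days 4 to 6, 3 rose (Id1, Id3 and Bmp4) and 3 fell (Id4, Bmp7 and, by its brighter probe only, Bmpr1a), with the background shares again at 25.6% and 29.2%. The dimmer Bmpr1a probe rose by 0.76 over days 1 to 3 (adjusted p = 0.00549) and by 1.04 over days 4 to 6 (adjusted p = 0.00141). The 3 comparisons with hypoxic cells share the same hypoxic arrays. Probe by probe on day 7, 6 of the 12 tested probes of the members rose and 4 fell, where 25.3% of all tested probes rose and 30.1% fell.

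**Figure D2:**
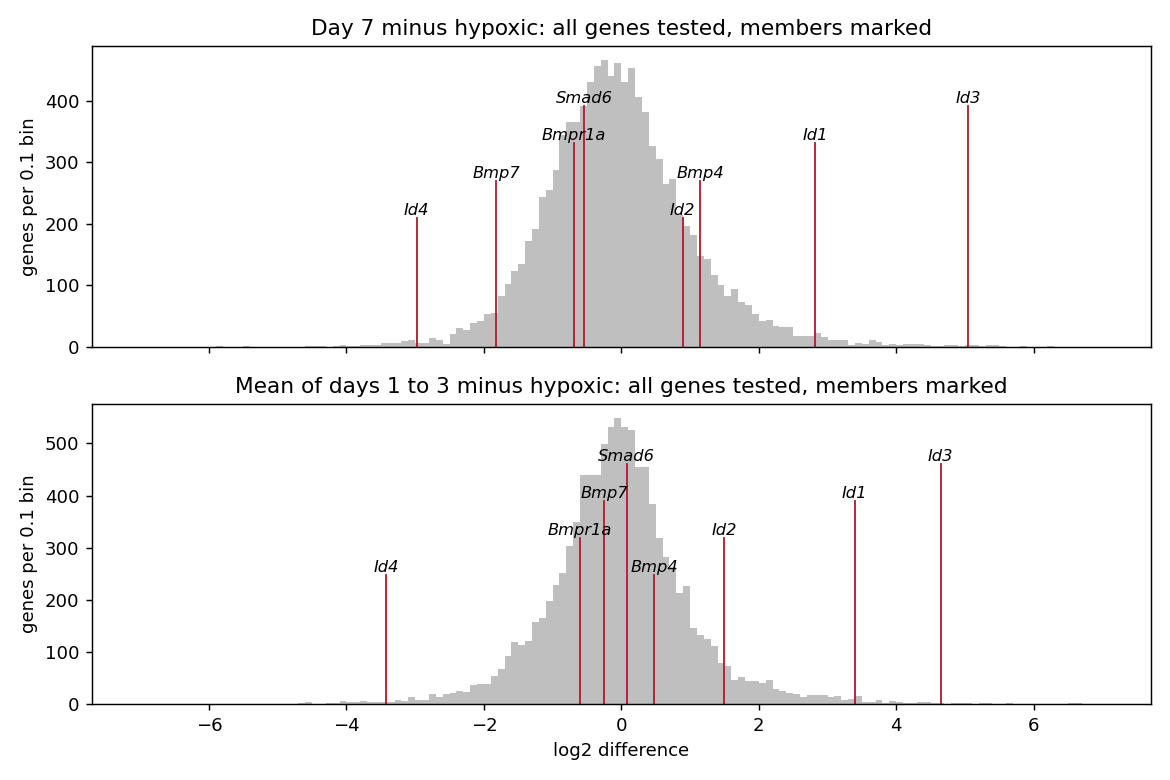
Number of genes (vertical axis) per 0.1 bin of log2 difference (horizontal axis) over all 10365 tested genes, for day 7 minus hypoxic (top) and the mean of days 1 to 3 minus hypoxic (bottom). Red lines mark the 8 tested members at heights chosen for legibility; Id3 (5.05 on day 7) and Id1 lie in the upper tail and Id4 (-2.98 on day 7) in the lower tail of both, while Smad6 and Bmpr1a lie near the middle.

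The rest of the pathway was read from lists of genes by role. Among BMP ligands, 13 of 14 listed had a probe and 3 were tested, Bmp4, Bmp7 and Bmp5 (0.15 on day 7, adjusted p = 0.766). Of the others, 8 were detected on no array, Bmp2 among them.

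Of 8 BMP receptors and co-receptors tested, 0 rose and 5 fell on day 7, with a median of -0.71 against -0.11 over all genes, where 25.9% of all genes rose and 33.7% fell. At an unadjusted p below 0.05 in limma again 0 rose. Bmpr1a is among the falls by its brighter probe only. The largest fall was that of Acvr2b, a type II receptor for activins and BMPs, with a day 7 mean of 6.52 ± 0.33 against 9.20 ± 0.11 in hypoxic cells (SD, n = 3 each), a difference of -2.68 (adjusted p = 3.75e-05), or -1.89 without background correction. Rgma, a BMP co-receptor, differed by -1.97 (adjusted p = 4.76e-05). Bmpr2, the main type II receptor for BMPs, differed by -1.15 on its brightest probe (adjusted p = 0.000241), but its 2 other probes gave -0.15 (adjusted p = 0.586) and -0.40 (adjusted p = 0.0529). Acvr2a differed by -0.73 (adjusted p = 0.0273). Acvr1, Bmpr1b and Rgmb did not pass (0.07, -0.03 and -0.21, with adjusted p = 0.648, 0.942 and 0.676). The same counts, 0 and 5, held over days 1 to 3.

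The signal-transducing Smad1 and Smad5 were lower on day 7, by -0.84 (adjusted p = 0.00158) and -0.94 (adjusted p = 0.000405) on their brightest probes. A second Smad5 probe did not pass (0.15, adjusted p = 0.543). Of the other Smad1 probes, -0.54 passed (adjusted p = 0.0198) and 0.11 did not (adjusted p = 0.834). The Smad1 call ended with the mean of its probes (-0.42, adjusted p = 0.111) and within set a alone (adjusted p = 0.0671).

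Among 5 intracellular inhibitors tested, 1 rose and 2 fell on day 7, near the shares of 25.9% and 33.7% over all genes. Skil, a co-repressor of Smad complexes, rose by 0.44 (adjusted p = 0.0267). A second Skil probe rose by 0.78 (adjusted p = 0.00253). The brighter probe no longer passed in 7 of 19 alternatives, among them leaving out hypoxic replicate 2 or 3 or day 7 replicate 1 or 2 (adjusted p = 0.0638 to 0.0924). Its relative Ski fell, with a difference of -1.18 (adjusted p = 0.00477), and so did Tob1, an antiproliferative protein that binds Smads (-0.86, adjusted p = 0.000522). Within set a alone neither passed (adjusted p = 0.0953 for Ski and 0.0586 for Tob1). Smurf1, a ubiquitin ligase for BMP Smads, did not pass on day 7 (-0.52, adjusted p = 0.151) and was 0.89 higher over days 1 to 3 (adjusted p = 0.0309). Its day 7 difference passed in 3 of 19 alternatives. These were the mean of its probes (-0.52, adjusted p = 0.0153), the common-median scaling (-0.75, adjusted p = 0.0231) and leaving out day 7 replicate 3 (-0.81, adjusted p = 0.0178). Its other probes gave -0.48 and -0.55 and did not pass (adjusted p = 0.15 and 0.114).

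The secreted antagonists, which hold ligands away from receptors, were split. On day 7, 4 of 10 tested rose and 3 fell, against 25.9% and 33.7% of all genes. Fst, which encodes follistatin, an activin and BMP trap, read 7.50, 7.80 and 8.07 on the hypoxic arrays, 13.06, 12.98, 12.44, 11.79, 11.04 and 11.74 on days 1 to 6, and 11.08, 10.91 and 11.21 on day 7. It was highest on day 1 and lower from day 3 on, yet every normoxic array lay above every hypoxic one. The difference was 3.27 on day 7 (9.67-fold, adjusted p = 1.75e-05) and 5.03 over days 1 to 3 (adjusted p = 5.09e-06). Bmper, which encodes a BMP-binding protein, was highest on day 7 and rose by 2.58 (adjusted p = 1.76e-05), after 1.13 over days 1 to 3 (adjusted p = 0.000457). Grem1, which encodes the antagonist gremlin, was detected on 0 of 3 hypoxic arrays and was at least 1.83-fold higher on day 7 (adjusted p = 0.000701). Falls were those of Crim1 (-1.57, adjusted p = 0.00531), the chordin gene Chrd (-1.16, adjusted p = 0.00822) and Twsg1, whose product works with chordin (-1.04, adjusted p = 0.000358). Crim1 did not pass within set a alone (adjusted p = 0.164) or on a second probe (-0.74, adjusted p = 0.0559). Chrd did not pass within set a alone (adjusted p = 0.0535) or set b alone (adjusted p = 0.0674). Without background correction Crim1 differed by -0.87 and Chrd by -0.52.

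**Figure D3:**
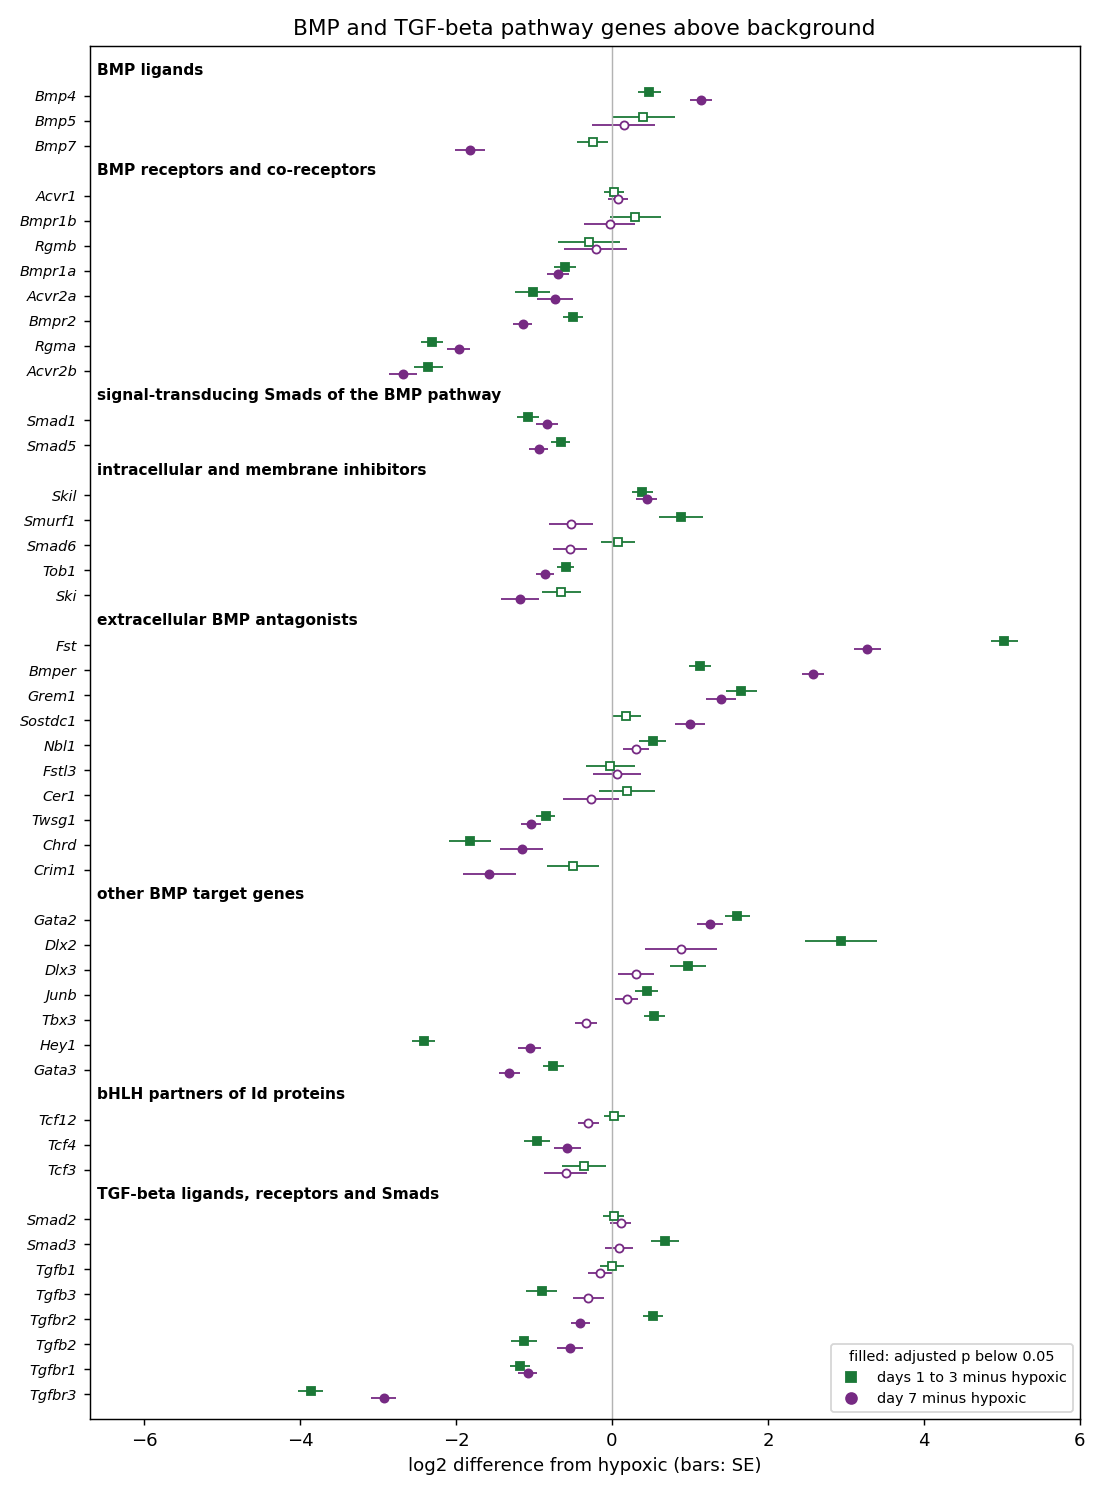
Log2 difference from hypoxic cells (horizontal axis, bars are SE) for every tested gene of the pathway lists, grouped by role, with circles for day 7 and squares for the mean of days 1 to 3. Filled symbols have an adjusted p below 0.05. On the probe used for each gene, the receptors that passed, Acvr2b (-2.68 on day 7) among them, all lie below 0. The dimmer Bmpr1a probe, which rose, is not drawn. Fst (5.03 over days 1 to 3) lies farthest to the right.

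Target genes of the pathway other than the Id genes gave 1 rise and 2 falls among 7 tested on day 7, and 5 rises and 2 falls over days 1 to 3. Over all genes the shares were 25.9% and 33.7% on day 7 and 25.6% and 29.2% over days 1 to 3. Gata2 was detected on 0 of 3 hypoxic arrays and was at least 1.67-fold higher on day 7 (adjusted p = 0.000481). Dlx2 was 2.94 higher over days 1 to 3 (adjusted p = 0.00138) and did not pass on day 7 (0.88, adjusted p = 0.138). Dlx3 (0.97, adjusted p = 0.00905), Tbx3 (0.54, adjusted p = 0.0127) and Junb (0.45, adjusted p = 0.0374) rose over days 1 to 3, and their day 7 differences of 0.31, -0.33 and 0.19 did not pass (adjusted p = 0.283, 0.0734 and 0.301). The Notch and BMP target Hey1 fell in both comparisons, by -1.06 on day 7 (adjusted p = 0.000686) and -2.41 over days 1 to 3 (adjusted p = 2.3e-05), though not within set a alone on day 7 (adjusted p = 0.0695). Gata3, a luminal mammary factor, was lower by -1.32 on day 7 (adjusted p = 0.000178). Msx1, Msx2, Dlx5 and Atoh8 were too dim to test.

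Of the 3 E protein genes, the partners of Id proteins, 0 rose and 1 fell on day 7, near the shares of 25.9% and 33.7% over all genes. Tcf4 fell (-0.57, adjusted p = 0.0222), and Tcf3 and Tcf12 did not pass (-0.59 and -0.30, with adjusted p = 0.104 and 0.0869). The call of Tcf4 ended in 6 of 19 alternatives, among them leaving out hypoxic replicate 1 or 3 or day 7 replicate 2 (adjusted p = 0.0683 to 0.0766). Tcf3 passed without day 7 replicate 1 (-0.81, adjusted p = 0.0412), and Tcf12 with the common-median scaling (-0.68, adjusted p = 0.00703).

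In the related TGF-beta branch, 0 of 8 genes rose and 4 fell on day 7, against 25.9% and 33.7% of all genes. At an unadjusted p below 0.05 in limma again 0 rose on day 7. Over days 1 to 3, 2 rose and 4 fell, against 25.6% and 29.2% of all genes. Tgfbr3, the co-receptor betaglycan, differed by -2.93 on day 7 (adjusted p = 1.76e-05) and -3.86 over days 1 to 3 (adjusted p = 7.04e-06), and a second probe by -2.41 on day 7. The type I receptor Tgfbr1 differed by -1.08 (adjusted p = 0.000287), but not past the threshold on a second probe (-0.53, adjusted p = 0.200) or within set a alone (adjusted p = 0.0505). Tgfb2 differed by -0.54 (adjusted p = 0.0275) and the type II receptor Tgfbr2 by -0.40 (adjusted p = 0.0246). The Tgfbr2 call ended in 9 of 19 alternatives and the Tgfb2 call in 6, including without hypoxic replicate 1 (adjusted p = 0.0687 and 0.0832) and without day 7 replicate 2 (adjusted p = 0.073 and 0.0797). The 2 other Tgfbr2 probes did not pass. Tgfb1, Tgfb3, Smad2 and Smad3 did not pass on day 7 (-0.16, -0.31, 0.11 and 0.09). With the common-median scaling Tgfb1 (-0.55, adjusted p = 0.0271) and Tgfb3 (-0.71, adjusted p = 0.0151) passed. Tgfb3 also passed without day 7 replicate 3 (-0.49, adjusted p = 0.0446).

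Genes with the most similar course to each Id gene were sought among the 3283 genes whose 8 group means varied by an SD of at least 0.5, as a description over 8 group means that share the same arrays. Id1 was followed most closely by the kinase gene Melk (Pearson r = 0.993), then Fxyd5 and Fubp1. Id2 was followed by the Wnt ligand gene Wnt4 (r = 0.958), Fam25c and Tsr2. For Id3 these were the nuclear pore gene Nup43 (r = 0.999), Ppil1 and Tyms-ps, a pseudogene whose probe may also read its parent gene. For Id4 they were Smtnl2 (r = 0.973), Adgrg2 and Zbtb24.

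Marker genes were read on the same arrays. All 6 mammary epithelial markers (Krt8, Krt18, Epcam, Cdh1, Krt5, Krt14) were detected on all 12 arrays. Their summed linear signals were 39117 to 42346 in hypoxic cells, 37988 to 54873 over days 1 to 6 and 27627 to 28114 on day 7. On day 7, 0 of the 6 rose and 4 fell, and over days 1 to 3, 1 rose and 1 fell. Over all genes 25.9% rose and 33.7% fell on day 7, and 25.6% and 29.2% over days 1 to 3. Of 7 fibroblast markers, 6 were tested, and on day 7 5 rose (Col1a1, Col1a2, Col3a1, Dcn and Pdgfrb) and Pdgfra fell. A second Col3a1 probe did not pass (-0.44, adjusted p = 0.29). Their sum was 434 to 541 in hypoxic cells, 524 to 3100 over days 1 to 6 and 2089 to 2360 on day 7, and Col1a1 and Col3a1 were detected on 0 of 3 hypoxic arrays. Of the 6 endothelial markers Tie1 and Emcn were detected on 0 of 12 arrays and the others on at most 3. The endothelial sum was 170.3 to 266 on day 7 and 193 to 195 in hypoxic cells. Of 7 macrophage markers with a probe, Cd14 was detected on all 12 arrays, Adgre1 on 0 and the others on at most 3, and the sum of 1847 to 2308 on day 7 against 638 to 760.1 in hypoxic cells includes Cd14, which rose by 1.87. The 4 lymphocyte markers with a probe summed to 111 to 129 on day 7 and 115 to 129 in hypoxic cells, with Cd3d and Cd8a detected on 0 arrays. The part of the epithelial, fibroblast and Cd14 signals in the Id and BMP differences was not tested. In these bulk samples fewer cells of a type and less RNA per cell cannot be told apart.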

How the data were processed

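Per the file headers and values, the authors' table of all 12 arrays holds, for each of 45281 probes, a deposited log2 signal, neither background-corrected nor normalized between arrays, and a deposited detection p-value. The sources used here do not name the scanner software. Each of the 12 detection p-value columns was tied to the signal column it orders exactly, since in 0 of 12 cases did the neighbouring column do so. A second deposited table of 6 arrays gave no signal values here and served only to infer sets a and b and to compare names. Its names conflict with the first table in all but 1 of its signal columns.

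Signals were processed with neqc (limma 3.58.1, R 4.3.3, offset 16) and fitted with lmFit and eBayes, with a mean for each of 8 groups and 4 residual degrees of freedom from the 2 triplicates. Single arrays of days 1 to 6 are taken to vary like them, and no single day was tested. Where a probe was detected on no array of a group, its fold is a bound against the lowest detected signal of each array. The code was tested on simulated data. Arrays give no counts, so their number limits the precision. Members and gene lists were chosen with earlier results of these data known. Genes named are all members, every tested gene of lists of up to 8 genes, and otherwise the up to 3 largest rises and falls past the threshold on day 7. For each Id gene the 3 genes closest in course are also named. Bmp5, Acvr2a, Acvr1, Bmpr1b, Rgmb, Dlx2, Dlx3, Tbx3, Junb and the genes too dim to test lie outside this rule and were named after their values were seen. Platform annotation gave 1 gene symbol to 34885 probes, and several to 18, and 10378 were left unnamed here. Alternatives covered background correction, scaling, filters, probe choice, variance trend, set and replicates; a lone array of a group within a set is assumed to vary like the others. Correlations of same-numbered deviations were 0.029, -0.0037 and 0.059. For 2 of the 3 hypoxic replicates the same-numbered day 7 array was nonetheless the closest. With 3 replicates a group this cannot settle whether the numbers pair the samples, and they are not taken to.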

Additional observations from a re-analysis of the deposited data

How the results depend on the processing

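The numbers of genes past the threshold were 6184 for day 7 against hypoxic, 5687 for days 1 to 3, 5683 for days 4 to 6 and 4634 for day 7 against days 1 to 3. Leaving out each hypoxic and day 7 replicate gave 5485 to 5943, 4990 to 5820, 4874 to 5853 and 3814 to 4432. Within set a alone 2626 genes passed on day 7 and 1967 over days 4 to 6, and within set b alone 2666 passed for day 7 against days 1 to 3, with fewer arrays in each of these fits. The within-set fits of the last 3 comparisons were chosen after seeing the data. On day 7, Id1, Id3, Id4 and Bmp7 kept their direction and passed in all 19 alternatives. Not all of these could differ from the main fit. The fit of only the 6 hypoxic and day 7 arrays repeats it, since the other arrays add no estimate of spread. For Id1, Id3 and Bmp7, with 1 tested probe each, the mean of probes gives the same difference. Values that changed sign were, on day 7, those of Smad6 within set a (0.0127), Bmpr1a as the mean of its probes (0.0683), Tgfb1 within set b (0.0072), Smad2 with the common median (-0.2737) and within set b (-0.0421), and Smad3 with the common median (-0.2504), as the mean of its probes (-0.1885) and within set b (-0.0029), and leaving out each replicate gave -0.0732 to 0.1873 for Smad3. Over days 1 to 3, Smad6 was -0.154 within set b and -0.154 to 0.2016 with each replicate left out, the lowest without hypoxic replicate 3. As the mean of probes, Bmpr1a was 0.0804 over days 1 to 3 and 0.3056 over days 4 to 6. The cause was not tested. The fall of Bmpr1a over days 4 to 6 lost its call in 9 of 16 alternatives, the mean of its probes included, among them without hypoxic replicate 1 or 3 or day 7 replicate 2, and that of Smad6 passed without hypoxic replicate 3 (-0.69). With the replicate number as a replicate block, on the 6 hypoxic and day 7 arrays, 6000 genes passed on day 7 and Tcf3 (adjusted p = 0.0125) was the named gene whose call changed, and the numbers are not taken to pair the samples. Signals near background limit Smad6, Smad7, Bambi and the dim Id2 probes.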
